A study of Mus musculus with 6 samples.

Results

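The genes described here are the matrix metalloproteinases, the ADAMTS proteases and the tissue inhibitors of metalloproteinases, taken as every gene whose symbol is Mmp, Adamts or Timp followed by a number. The rule found 45 of the 32285 genes in the files, 22 of them Mmp genes, 19 Adamts genes and 4 Timp genes. It used no measured value.

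The samples were nuclei of subcutaneous white adipose tissue from mice on a high-fat diet, 3 libraries of GPSM1f/f mice (flox controls, in which Gpsm1 is floxed) and 3 libraries of GPSM1ΔTreg mice (knockouts, named for a deletion in regulatory T cells). Gpsm1 encodes a modulator of inhibitory G proteins, and regulatory T cells are the Foxp3-positive T cells that restrain immune responses. The diet was 12 weeks by the sample labels and 5 to 12 weeks by the protocol, from 7 weeks of age, and both groups received it. The labels give 3 mice per genotype, and neither the Cre driver, the deleted exons nor the sex is given in the sources used here, so the knockout is known only by its name.

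Matrix metalloproteinases are zinc proteases that are secreted or held at the cell surface and cut collagens, elastin, gelatin and other matrix proteins once a propeptide has been removed. ADAMTS proteases carry thrombospondin repeats that bind them to matrix, where some cut proteoglycans such as versican, some trim the ends of procollagens and the targets of others are less well known. TIMP proteins bind the active site of these enzymes, and in adipose tissue the balance between proteases and inhibitors is known for shaping the collagen mesh around growing adipocytes and their vessels.

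Levels are given as CPM, the unique molecular identifiers (UMIs, 1 for each captured RNA molecule) of a gene per 1000000 UMIs of all genes in the same class of nuclei and library. A level is compared between classes or libraries for 1 gene at a time, since a 3′ count does not rank different genes. Of 65162 barcodes, 56222 were kept as nuclei, 9114 to 9730 per library, with 33193772 to 48319668 UMIs per library. The kept nuclei fell into 34 clusters built without the 45 genes, and 25 clusters were named by markers of cell types, so every class below is named "-like". Pairs of libraries shared 24 to 44 barcodes. Gpsm1 itself stood at 27.2, 31.3 and 24.1 CPM in the whole tissue of flox controls 1, 2 and 3 and at 38.3, 38.3 and 33.7 CPM in knockouts 1, 2 and 3, and at 25.9 to 37.5 CPM in the T-like nuclei of the controls against 19.6 to 28.7 CPM in those of the knockouts, from 2 to 4 and 11 to 40 UMIs. With a deletion restricted to regulatory T cells, these levels do not check the labels. B-like nuclei made up 2.02, 1.04 and 5.06% of kept nuclei in the flox controls and 38.8, 12.4 and 19.6% in the knockouts, and flox control 3 held 2904 of the 3192 nuclei of 1 unnamed cluster. In whole tissue, fewer cells of a type and less RNA per cell cannot be told apart.

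Every one of the 45 genes had UMIs, 662288 in all, and 34 reached a mean of 5 CPM in at least 1 of 13 classes and states. The remaining 11 (Mmp1b, Mmp7, Mmp8, Mmp10, Mmp20, Mmp21, Mmp24, Adamts8, Adamts13, Adamts19 and Adamts20) stayed below 5 CPM in all 13. Classes with few or no nuclei in some libraries, such as nuclei like lymphoid stroma, are not among the 13. The stroma led: the highest mean level was in a state of adipose stem and progenitor cells (ASPC-like nuclei, fibroblasts that include the precursors of adipocytes) for 14 of the 34 genes, or 41.2%, against 12.6% of all 15902 genes at the same level. Mural-like nuclei (pericytes and smooth muscle of vessels) led for 7 genes, or 20.6% against 8.69%. Endothelial-like nuclei led for 4 (11.8% against 8.42%), macrophage-like nuclei for 4 (11.8% against 16.6%), a cluster with markers of both NK and T cells (the NK/T cluster) for 3 (8.82% against 10.1%) and adipocyte-like nuclei for 2 (5.88% against 11.5%), and none led in B-like, T-like or dendritic-like nuclei. The leading class or state was the same in all 6 libraries for 19 of the 34 genes, 55.9%, against 27.9% of all genes at that level.

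**Figure D1:**
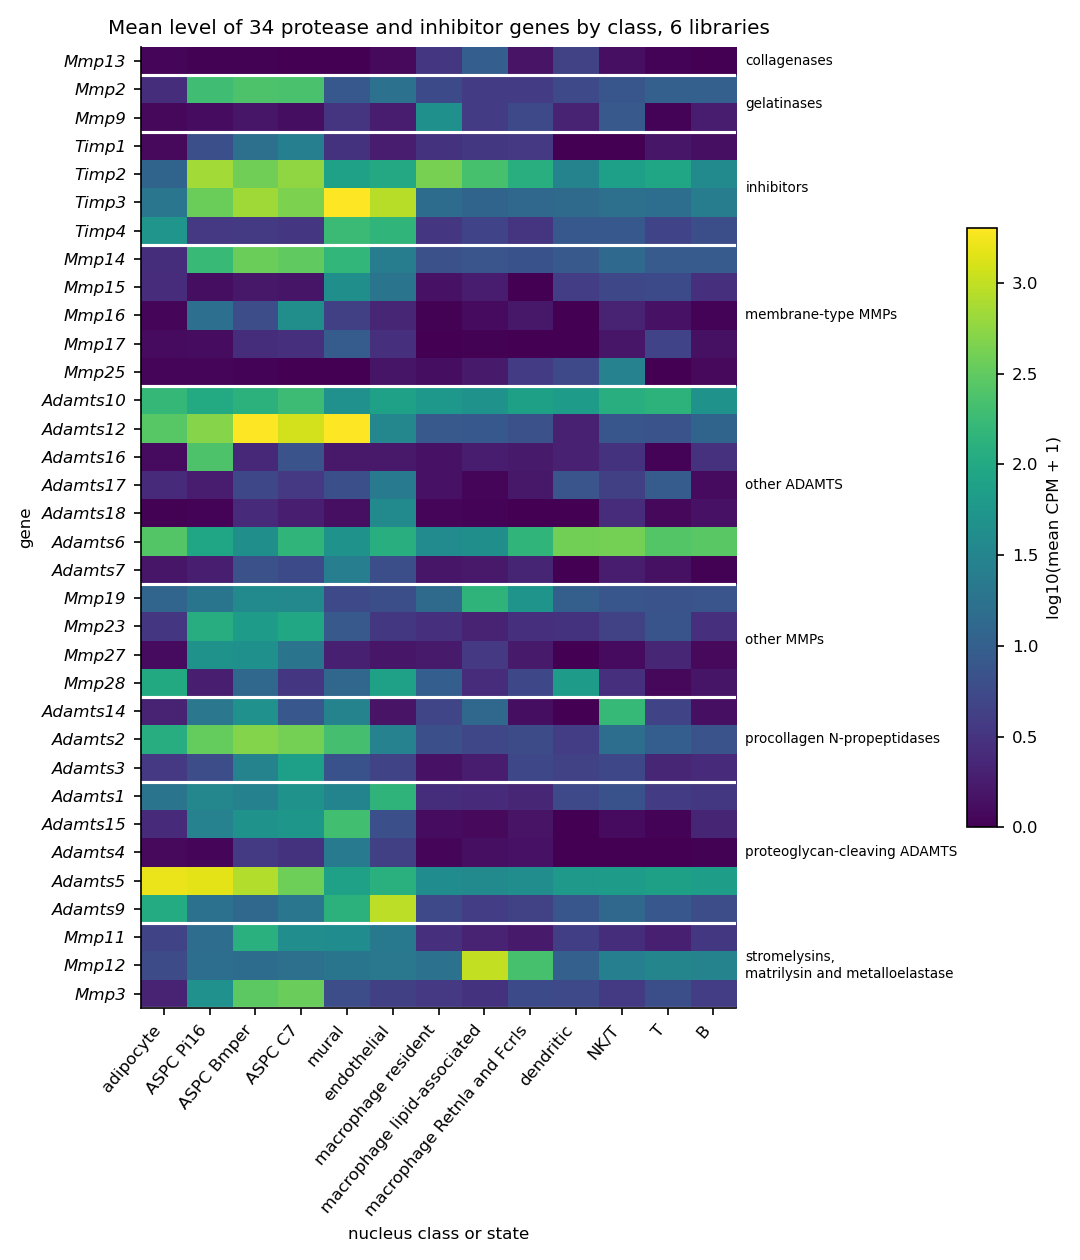
Mean level over 6 libraries of the 34 genes that reached 5 CPM in a class, as log10 of CPM plus 1 (colour), with genes in rows by role and 13 nucleus classes and states in columns. The stromal, mural and endothelial columns hold the highest level of most genes, while Mmp12 and Mmp19 are highest in lipid-associated macrophage-like nuclei and Mmp9 in resident ones.

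Among the collagenases, which cut fibrillar collagen, only Mmp13 reached 5 CPM, at 8.80 ± 12.3 CPM (SD, n = 6 libraries) in lipid-associated macrophage-like nuclei, where knockout 1 alone gave 33.8 CPM. The gelatinases Mmp2 and Mmp9, which degrade denatured and basement membrane collagen, were read in different cells. Mmp2 was led by the stroma, at 237 ± 29.9 CPM in the ASPC-like state marked by Bmper and 226 ± 51.7 CPM in the state marked by C7, levels that do not differ beyond their spread. Mmp9 was led by resident macrophage-like nuclei at 44.3 ± 15.9 CPM, in all 6 libraries, and the NK/T cluster came next at 7.48 ± 4.79 CPM.

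Several Mmp genes lie in 1 cluster on chromosome 9 of mm10, among them Mmp13 (7272514 to 7283331), the metalloelastase Mmp12 (7344381 to 7369499), the stromelysin Mmp3 (7445822 to 7455975) and Mmp27 (7571396 to 7581885). These 4 were led by different classes or states, apart from Mmp12 and Mmp13, which shared one. Mmp12, the macrophage metalloelastase, stood at 1017 ± 275 CPM in lipid-associated macrophage-like nuclei and at 220.0 ± 93.4 CPM in the macrophage-like state marked by Retnla and Fcrls. Mmp3, stromelysin-1, stood at 350.0 ± 104 CPM in the C7 state of the stroma, which led in 6 of 6 libraries, and 293 ± 68.9 CPM in the Bmper state. Mmp27 stood at 47.4 ± 8.25 CPM in the stromal state marked by Pi16 and at 44.6 ± 12.8 CPM in the Bmper state, so those 2 states were not separated. Mmp11, stromelysin-3, which lies on chromosome 10, was led by the Bmper state in all 6 libraries at 125 ± 18.8 CPM, and the C7 state came next at 40.6 ± 14.4 CPM.

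The promoters of 3 of these neighbours are shown because the genes lie within 1 cluster and were not all read in the same cells. Mmp12 was led by lipid-associated macrophage-like nuclei, and both Mmp3 and Mmp27 by states of the stroma. They come from RefSeq's table for GRCm38.p6, which matched 31 of the 45 genes, and each runs from 250 bases before to 50 bases after the start on the plus strand: Mmp12 at chr9:7344147-7344446 (the first of 2 promoters in the table), Mmp3 at chr9:7445572-7445871 and Mmp27 at chr9:7571146-7571445. Capitals mark matches on either strand to the AP-1 element TGANTCA, the TATA box TATAAA or AGGAAG, the ETS core of PU.1 sites (CTTCCT when read on the other strand).
Mmp12: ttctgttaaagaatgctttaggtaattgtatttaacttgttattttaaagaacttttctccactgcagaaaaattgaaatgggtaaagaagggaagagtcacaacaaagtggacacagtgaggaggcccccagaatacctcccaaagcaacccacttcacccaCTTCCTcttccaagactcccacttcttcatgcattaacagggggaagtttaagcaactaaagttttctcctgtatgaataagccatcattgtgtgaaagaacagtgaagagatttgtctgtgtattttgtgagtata
Mmp3: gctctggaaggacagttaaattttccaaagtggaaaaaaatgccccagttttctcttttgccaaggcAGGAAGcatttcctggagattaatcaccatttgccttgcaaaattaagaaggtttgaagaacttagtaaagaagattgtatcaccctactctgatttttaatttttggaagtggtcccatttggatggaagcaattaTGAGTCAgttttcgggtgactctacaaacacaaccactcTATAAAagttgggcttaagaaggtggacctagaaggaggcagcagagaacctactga
Mmp27: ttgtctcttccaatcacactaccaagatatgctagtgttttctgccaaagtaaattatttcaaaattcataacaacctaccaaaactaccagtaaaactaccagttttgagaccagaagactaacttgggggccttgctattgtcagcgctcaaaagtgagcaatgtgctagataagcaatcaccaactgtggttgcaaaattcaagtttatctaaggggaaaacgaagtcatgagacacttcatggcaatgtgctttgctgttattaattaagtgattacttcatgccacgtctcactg
The Mmp12 window held 1 match, to AGGAAG on the minus strand at bases 164 to 169 of the window. The Mmp3 window held AGGAAG at bases 68 to 73, TGANTCA at bases 205 to 211 and TATAAA at bases 244 to 249, all on the plus strand. The Mmp27 window held none of the 3. Of all 32851 promoters listed there, 7.81% held TGANTCA, 13.6% TATAAA and 35.4% AGGAAG, and of the 34 promoters of the 31 matched genes 7, 10 and 15 did. A match describes the letters and shows no binding.

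Of the membrane-type enzymes, Mmp14, which activates the Mmp2 proenzyme and cuts collagen at the cell surface, was led by the Bmper state at 360.0 ± 39.9 CPM. Mmp15 was led by mural-like nuclei at 43.3 ± 17.8 CPM in 6 of 6 libraries, Mmp16 by the C7 state at 41.9 ± 18.7 CPM and Mmp17 by mural-like nuclei at 8.22 ± 4.67 CPM. Mmp25, known as the leukocyte membrane-type enzyme, was led by the NK/T cluster in 6 of 6 libraries at 28.4 ± 7.73 CPM. At the finer clustering (Leiden resolution 2) no cluster was named for NK cells: a cluster with 8 of 8 T markers, led by Cd163l1 and Il23r, held 944 nuclei, and 1 with 7 of 7 NK markers, 307 nuclei, stayed unnamed. NK and T cells are therefore not told apart for the 3 genes that the NK/T cluster led. Of the markers of dividing cells, 5 stood 2-fold or more over the average of the remaining clusters in the NK/T cluster. In the lipid-associated macrophage-like cluster 6 did. The part of dividing nuclei in the levels of both clusters was not tested.

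Mmp19 was led by lipid-associated macrophage-like nuclei at 141 ± 61.0 CPM in all 6 libraries, with the Retnla and Fcrls state next at 50.0 ± 18.6 CPM. Mmp23 was led by the Pi16 state at 114 ± 9.35 CPM. Mmp28, epilysin, was led by adipocyte-like nuclei at 99.99 ± 15.0 CPM in 6 of 6 libraries, and endothelial-like nuclei came next at 77.0 ± 9.46 CPM. Mmp19 and Mmp28 overlap genes on the opposite strand (Tmem198b and 1700020L24Rik), and whether the counting used strand is not given in the sources used here, which also applies to others of the 45 genes, among them Mmp12 with Mmp1b, Mmp11 with Chchd10, Adamts7 with Tbc1d2b, Timp1 with Syn1, Timp3 with Syn3 and Timp4 with Syn2.

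Of the proteoglycan-cleaving ADAMTS genes, Adamts5, the main aggrecanase of mouse cartilage, was led by adipocyte-like nuclei at 1636 ± 287 CPM, in 5 of 6 libraries. The Pi16 state came next at 1492 ± 146 CPM, within the spread over libraries. Adamts9, a versican-cleaving enzyme, was led by endothelial-like nuclei at 932 ± 155 CPM against 133 ± 56.2 CPM in mural-like nuclei, and Adamts1, which also cuts versican, was led by the same class at 139 ± 34.6 CPM, each in all 6 libraries. Adamts15 (202 ± 43.7 CPM, 6 of 6 libraries) and Adamts4 (21.3 ± 13.9 CPM, 5 of 6) were led by mural-like nuclei. Adamts1 and Adamts5 are neighbours on chromosome 16 (85793827 to 85803113 and 85856173 to 85901828) and were led by different classes.

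The procollagen N-propeptidases trim the amino ends of fibrillar procollagens. Adamts2 was led by the Bmper state at 490 ± 72.0 CPM, Adamts3, which also processes the lymphatic growth factor Vegfc, by the C7 state at 72.1 ± 18.4 CPM, and Adamts14 by the NK/T cluster at 160.3 ± 94.3 CPM. Among the other ADAMTS genes, Adamts16 was the most restricted by this measure: the Pi16 state held 242 ± 109.7 CPM and the next, C7, 6.09 ± 10.4 CPM, a ratio of 39.7. Adamts18 had the next highest ratio, 23.3, with 37.4 ± 14.6 CPM in endothelial-like nuclei, and within that class the cluster led by Aqp1 averaged 212 CPM against 9.83 and 14.8 CPM in the clusters led by Car4 and by Cytl1. Adamts12 was shared by the Bmper state (2017 ± 336 CPM) and mural-like nuclei (1958 ± 307 CPM). Of the 13 classes and states Adamts17 was led by endothelial-like nuclei at 21.4 ± 9.82 CPM (lymphoid stroma-like nuclei, outside the 13, held more), Adamts7, known from vascular smooth muscle, by mural-like nuclei at 24.8 ± 10.1 CPM, and Adamts6 by the NK/T cluster (410.1 ± 143 CPM) and dendritic-like nuclei (393 ± 208 CPM) within their spread. Adamts10, linked to fibrillin microfibrils, was led by the C7 state at 181 ± 36.1 CPM in 4 of 6 libraries, within the spread of adipocyte-like nuclei at 160 ± 25.8 CPM.

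The 4 inhibitors each had their own distribution. Timp1, the inducible inhibitor, was led by the C7 state at 26.1 ± 18.1 CPM. Timp2, which also helps Mmp14 to activate Mmp2, was led by the Pi16 state at 696 ± 44.9 CPM in all 6 libraries. Timp3, which is held in the matrix, was led by mural-like nuclei at 2008 ± 662 CPM, with endothelial-like nuclei next at 884 ± 123 CPM. Timp4 was led by mural-like nuclei (179 ± 45.4 CPM) in 6 of 6 libraries, with endothelial-like nuclei next (144 ± 27.5 CPM). The adipocyte-like class held 52.2 ± 23.3 CPM of it.

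The comparison of knockouts with flox controls was made in each class from the UMIs summed per library. Fold changes are on the log2 scale, knockout over control, from edgeR's quasi-likelihood test, and an adjusted p is the Benjamini-Hochberg value over all genes tested in that class, with a threshold of 0.05. An exact permutation test of 3 libraries against 3 cannot go below p = 0.10.

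In macrophage-like nuclei, which made up 25.2, 25.2 and 12.4% of kept nuclei in flox controls 1, 2 and 3 and 7.91, 16.0 and 12.4% in knockouts 1, 2 and 3, 1 of the 17 genes tested rose and none fell by edgeR's adjusted p. The gene was Mmp9. Of all genes tested in the class 0.438% were called higher and 0.805% lower. Mmp9 stood at 13.2, 17.4 and 13.1 CPM in flox controls 1, 2 and 3 and at 35.4, 24.6 and 35.7 CPM in knockouts 1, 2 and 3, from 52 to 117 UMIs. All 3 knockouts lay above all 3 controls. The log2 fold change was 1.12 (SE 0.193, edgeR adjusted p = 0.0291). DESeq2 also called this 1 gene and no other, and the share of all genes that it called in the class is not given here.

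The Mmp9 call was lost without flox control 1, flox control 3, knockout 1 or knockout 3, with adjusted p up to 0.137 over the alternatives and log2 fold changes between 1.03 and 1.30. Within the resident state, which held 42.5, 50.4 and 51.7% of macrophage-like nuclei in the flox controls and 59.6, 52.1 and 64.9% in the knockouts, Mmp9 stood at 30.7, 35.7 and 25.7 CPM in the flox controls and at 64.5, 50.4 and 58.7 CPM in the knockouts. The groups did not overlap there either, and the log2 fold change of 0.88 (SE 0.165) did not pass (edgeR adjusted p = 0.145). In the lipid-associated state Mmp9 was low in every library, at 3.38, 1.83 and 2.19 CPM in the flox controls and 6.34, 3.19 and 0 CPM in the knockouts. Mmp9 is also a neutrophil gene. The 6 neutrophil markers summed to 35.3, 44.7 and 39.4 CPM in the macrophage-like nuclei of the controls and to 69.4, 56.3 and 44.7 CPM in those of the knockouts, but to 50.0, 65.4 and 59.8 CPM and 59.4, 63.5 and 35.1 CPM in the resident state, and Ly6g was at 0. The part of neutrophil RNA in the Mmp9 difference was not tested.

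At the main clustering Mmp12 was not called in any macrophage-like state. There edgeR and DESeq2 called none of the 10 genes tested in the lipid-associated state, the 6 in the Retnla and Fcrls state and the 11 in the resident state, where 0.170%, 0.103% and 0.0193% of all genes were called by edgeR. At an unadjusted p under 0.05 there were 2 genes in each of the 3 states, against 7.80%, 6.17% and 6.45% of all genes. Lipid-associated nuclei were 48.1, 43.3 and 38.2% of macrophage-like nuclei in the flox controls and 14.2, 34.6 and 17.3% in the knockouts. In those nuclei Mmp12 stood at 1047, 934 and 855 CPM in the flox controls and at 1498, 1082 and 689 CPM in the knockouts. The knockouts reached both above and below the controls, and the log2 fold change was 0.20 (edgeR adjusted p = 0.935), turning to -0.09 without knockout 1. In the Retnla and Fcrls state the values were 298, 131 and 285 CPM and 219, 304 and 84.1 CPM, with a log2 fold change of -0.27 (edgeR adjusted p = 0.982) that turned to 0.11 without knockout 3. At the finer clustering Mmp12 passed as lower in this state (edgeR adjusted p = 0.0225), the only 1 of 13 alternatives in which it did. Its log2 fold changes over the alternatives ran from -1.26 to 0.11.

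Over all macrophage-like nuclei Mmp12 stood at 630.3, 469 and 425 CPM in the flox controls and at 316, 483 and 152 CPM in the knockouts, and its log2 fold change of -0.68 did not pass (edgeR adjusted p = 0.568). The markers of the lipid-associated list summed to 4838, 3813 and 3583 CPM in the same nuclei of the controls and to 2055, 3132 and 1677 CPM in the knockouts. Knockout 2 was the knockout with the highest value of both. Mmp19, the other protease led by this state, stood within it at 143, 87.3 and 98.6 CPM in the flox controls and at 239, 93.2 and 186 CPM in the knockouts, and the groups overlapped.

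**Figure D2:**
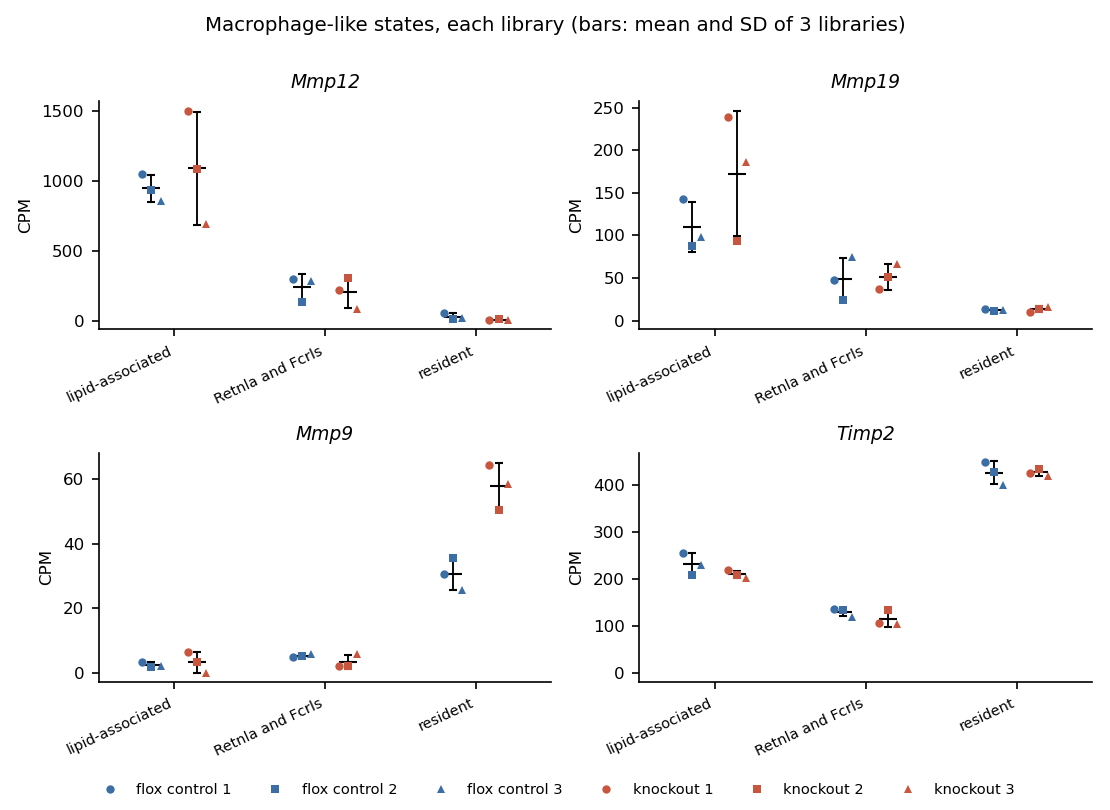
Level in CPM (vertical axis) of Mmp12, Mmp19, Mmp9 and Timp2 in 3 macrophage-like states, with 1 point per library and the mean and SD of 3 libraries as bars. Within the lipid-associated state the knockout libraries spread from 689 to 1498 CPM of Mmp12 around the controls, and in the resident state the Mmp9 levels of the knockouts (50.4 to 64.5 CPM) lie above those of the controls (25.7 to 35.7 CPM).

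Mmp12 was also read in classes not known to make it. In B-like nuclei it stood at 111, 27.9 and 12.0 CPM in the flox controls and at 7.19, 9.12 and 5.48 CPM in the knockouts. The lipid-associated markers summed there to 830.0, 411 and 287 CPM and to 195, 317 and 175 CPM. In adipocyte-like nuclei Mmp12 stood at 11.2, 4.50 and 5.66 CPM and at 1.52, 4.13 and 1.72 CPM, below the B-like level of the same library in all 6, and its source there was not tested. Its adipocyte-like log2 fold change of -1.60 did not pass (edgeR adjusted p = 0.111).

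Timp2 kept its order among the states in every library. It stood at 449, 427 and 399.9 CPM in the resident nuclei of the controls and 425, 434 and 419 CPM in those of the knockouts, at 219.9 ± 19.8 CPM (SD, n = 6) in the lipid-associated state and at 121 ± 14.4 CPM in the Retnla and Fcrls state. Of the other genes tested in macrophage-like nuclei, Adamts14 was at 13.4, 9.25 and 6.82 CPM in the flox controls and at 3.85, 4.93 and 3.72 CPM in the knockouts, a log2 fold change of -1.24 that did not pass (edgeR adjusted p = 0.0768). Adamts6 was at 49.5, 40.4 and 44.0 CPM and at 58.9, 53.2 and 68.9 CPM (log2 fold change 0.44, edgeR adjusted p = 0.135). The groups of neither gene overlapped. In all, 5 of the 17 genes had groups that did not overlap, 29.4%, against 19.7% of all genes tested in the class, and the median log2 fold change of the 17 was -0.12 against 0.00 over all genes.

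The macrophage-like value of Mmp14 depended on 1 small cluster. It stood at 9.04, 5.82 and 5.05 CPM in the flox controls and at 20.8, 8.30 and 14.0 CPM in the knockouts, with a log2 fold change of 1.05 (edgeR adjusted p = 0.187). A cluster marked by Timd4 and Marco, which held 0, 0 and 2 nuclei in the flox controls and 56, 9 and 39 in the knockouts, had 181, 180.4 and 189 CPM of Mmp14 in knockouts 1, 2 and 3. Without that cluster, an alternative chosen after seeing the data, the log2 fold change of Mmp14 was -0.34, while that of Mmp9, which had 0 UMIs in the cluster, was 1.20.

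In adipocyte-like nuclei 23 of the 45 genes were tested, and 1 fell. It was Adamts3, at 4.65, 4.11 and 2.32 CPM in flox controls 1, 2 and 3 and at 1.38, 1.58 and 1.17 CPM in knockouts 1, 2 and 3, from 50 to 129 and 19 to 28 UMIs. The groups did not overlap. The log2 fold change was -1.50 (SE 0.305, edgeR adjusted p = 0.0463), and 1.51% of all genes tested in the class were called lower. The call was lost without any 1 of flox controls 1 and 2 and knockouts 1, 2 and 3 and at the finer clustering, with log2 fold changes from -1.73 to -1.30 and adjusted p up to 0.146. The adipocyte-like class of the finer clustering included a cluster led by Hbb-bs and Plin4 with 541 nuclei, 538 of them from flox control 3. Its part in the calls lost there, here and below, was not tested. DESeq2 called 2 of the 23 lower, Adamts3 and Mmp12, where it called 4.99% of all genes lower.

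The adipocyte-like class held 5 clusters, of which the smallest, with 57 nuclei and 31 of them in knockout 1, is not described further. In the cluster led by Mageb18 and Ptchd4 Adamts3 stood at 6.55, 5.37 and 3.44 CPM in the flox controls and at 2.40, 0.787 and 1.09 CPM in the knockouts, again without overlap. In that led by Vat1l and Gabrr2 it stood at 2.13, 2.26 and 1.35 CPM and at 0.302, 0.935 and 1.26 CPM, also apart. It overlapped in the cluster led by Pex5l and Peg10, at 5.10, 4.55 and 2.25 CPM and at 2.39, 3.73 and 0 CPM, and in that led by Pck1 and Cfd, at 0.970, 0 and 0 CPM and at 0.548, 2.81 and 1.68 CPM. The Mageb18 and Ptchd4 cluster held 30.8, 36.9 and 33.6% of adipocyte-like nuclei in the flox controls and 21.9, 19.6 and 13.3% in the knockouts, while the cluster led by Pck1 and Cfd held 7.33, 7.42 and 17.1% and 39.1, 43.2 and 42.9%. Markers of mural-like nuclei summed to 121, 132 and 101.2 CPM in the adipocyte-like nuclei of the controls and to 116, 99.7 and 73.7 CPM in those of the knockouts. ASPC markers summed to 227, 232 and 259 CPM and to 252, 370.0 and 334 CPM, and their part in the adipocyte-like values was not tested.

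Timp4, the inhibitor known for its adipose and heart expression, stood at 31.5, 41.0 and 30.0 CPM in the adipocyte-like nuclei of the controls and at 49.7, 74.9 and 86.0 CPM in those of the knockouts. All knockouts lay above all controls. The log2 fold change of 0.97 (SE 0.214) missed the threshold by edgeR (adjusted p = 0.0633) and passed by DESeq2 (adjusted p = 0.000374). By cluster, Timp4 stood at 10.98, 13.3 and 10.4 CPM in the flox controls and 26.4, 34.6 and 43.7 CPM in the knockouts in nuclei led by Mageb18 and Ptchd4, and at 29.2, 21.7 and 27.0 CPM and 36.8, 58.1 and 73.5 CPM in those led by Pex5l and Peg10. The groups were apart in both of these clusters. In the cluster led by Vat1l and Gabrr2 Timp4 stood at 58.4, 94.4 and 51.5 CPM and at 89.6, 120.3 and 132 CPM, with overlap. In the cluster led by Pck1 and Cfd the values were 56.3, 91.3 and 61.2 CPM and 53.1, 83.0 and 70.8 CPM, and they overlapped too.

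**Figure D3:**
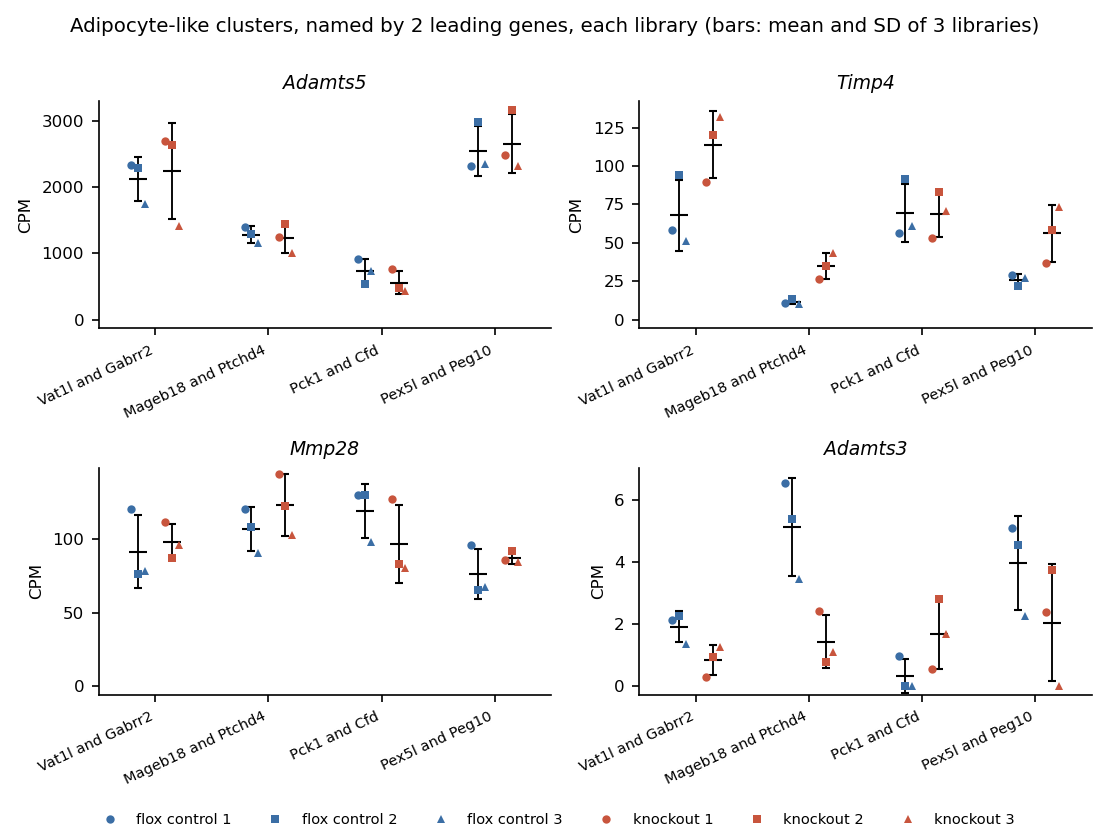
Level in CPM (vertical axis) of Adamts5, Timp4, Mmp28 and Adamts3 in 4 of the 5 adipocyte-like clusters, all but the smallest, named by leading genes, with 1 point per library and the mean and SD of 3 libraries as bars. Timp4 in the Mageb18 and Ptchd4 cluster lies at 10.4 to 13.3 CPM in the flox controls and 26.4 to 43.7 CPM in the knockouts, while Adamts5 separates the clusters more than the genotypes.

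Adamts5 differed more between adipocyte-like clusters than between genotypes. It averaged 2603 ± 372 CPM (SD, n = 6) in the cluster led by Pex5l and Peg10, 2187 ± 507 CPM in that led by Vat1l and Gabrr2, 1260.2 ± 162 CPM in that led by Mageb18 and Ptchd4 and 644 ± 188 CPM in that led by Pck1 and Cfd. Over the class it stood at 1912, 1921 and 1504 CPM in the flox controls and at 1643, 1685 and 1152 CPM in the knockouts, with overlap and a log2 fold change of -0.33 (edgeR adjusted p = 0.265). The Pex5l and Peg10 cluster held 21.6, 16.0 and 15.7% of adipocyte-like nuclei in the flox controls and 9.10, 3.83 and 7.51% in the knockouts.

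Adamts15 in adipocyte-like nuclei was near the floor, at 0.866, 0.546 and 1.02 CPM in the flox controls and 0.896, 3.11 and 2.34 CPM in the knockouts, from 13 to 55 UMIs. The groups overlapped in knockout 1, and the log2 fold change of 1.34 did not pass (edgeR adjusted p = 0.140) but did without knockout 1 (adjusted p = 0.0488). Mmp28 was tested without a call. Of the 23 genes tested, 5 had groups that did not overlap, 21.7%, against 30.9% of all genes in the class, and the median log2 fold change was -0.10 against 0.01 over all genes.

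In ASPC-like nuclei none of the 28 genes tested passed edgeR's adjusted p, where 0.268% of all genes did. At an unadjusted p under 0.05 there were 10, or 35.7%, against 10.8% of all genes, and DESeq2 called 2 lower, Adamts12 and Adamts2, against 0.694% of all genes. Groups did not overlap for 12 genes, 42.9%, against 16.5% of all genes tested. Of the 12, 9 were lower and 3 higher in the knockouts, where 8.03% and 8.52% of all genes were. The 9 included Mmp12 (log2 fold change -2.25, edgeR adjusted p = 0.361), which lipid-associated macrophage-like nuclei lead. Its source in ASPC-like nuclei was not tested. The median log2 fold change of the 28 was -0.20 against 0.01 over all genes. These are counts over genes that share libraries, and no test of the list was made.

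Adamts12, a protease of cartilage matrix proteins, stood at 1309, 1527 and 1308 CPM in the ASPC-like nuclei of flox controls 1, 2 and 3 and at 816, 986 and 1098 CPM in those of knockouts 1, 2 and 3. Every knockout was below every control. The log2 fold change was -0.52 (SE 0.115, edgeR adjusted p = 0.104, DESeq2 adjusted p = 0.00554). In the Bmper state, which held 36.6, 40.9 and 38.5% of ASPC-like nuclei in the flox controls and 24.0, 38.2 and 33.5% in the knockouts, it stood at 2231, 2476 and 2162 CPM and at 1641, 1639 and 1953 CPM, apart again, with a log2 fold change of -0.40 (edgeR adjusted p = 0.137). In the Pi16 state it stood at 531, 548 and 528 CPM and at 432, 459.7 and 498 CPM. Macrophage markers summed to 152, 83.0 and 84.0 CPM in the ASPC-like nuclei of the controls and to 52.5, 61.6 and 46.1 CPM in those of the knockouts.

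Adamts2 stood at 443, 466 and 445 CPM in the flox controls and at 335, 393 and 329 CPM in the knockouts, without overlap and with a log2 fold change of -0.37 (SE 0.0848, edgeR adjusted p = 0.116, DESeq2 adjusted p = 0.0383). Adamts15 stood at 46.1, 47.6 and 41.6 CPM and at 25.3, 38.5 and 35.0 CPM, also apart (log2 fold change -0.46, edgeR adjusted p = 0.269). All 3 procollagen N-propeptidases had lower values in every knockout than in any control over the class, where 8.03% of all genes did. By state this held for 1 of 3 in the Bmper state, 0 of 2 tested in the C7 state and 0 of 3 in the Pi16 state. The share of all genes without overlap is not given for these states, so the counts by state cannot be set against it.

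Adamts16, the most restricted of the stromal genes, stood in the Pi16 state at 375, 377 and 219 CPM in the flox controls and at 168, 196 and 115 CPM in the knockouts. The groups did not overlap. Its log2 fold change there was -1.05 (SE 0.284), with an edgeR adjusted p of 0.366 and a DESeq2 adjusted p of 0.000265, so the tools disagreed on the call. Adamts17 in the Bmper state stood at 9.26, 4.89 and 7.25 CPM and at 1.57, 2.01 and 0.451 CPM, apart, with a log2 fold change of -2.37 (edgeR adjusted p = 0.0796).

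Fewer stromal genes ran the other way. Mmp27 stood at 30.7, 44.9 and 33.2 CPM in the ASPC-like nuclei of the controls and at 47.2, 51.0 and 51.8 CPM in those of the knockouts (log2 fold change 0.45, edgeR adjusted p = 0.247). Mmp2 stood at 211, 196 and 188 CPM and at 219.5, 253 and 221 CPM (log2 fold change 0.21, edgeR adjusted p = 0.403). Neither gene's groups overlapped and neither passed. Timp1 was spread over the knockouts, at 2.76, 23.6 and 5.72 CPM against 14.8, 13.7 and 9.03 CPM in the flox controls, and so was Mmp3 in the Pi16 state, at 16.3, 162 and 39.9 CPM against 16.2, 25.3 and 13.7 CPM. Knockout 2 was the highest library for both.

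By state, 0 of 25 genes tested passed in the Bmper state (7 at an unadjusted p under 0.05, 28.0%, against 9.07% of all genes), 0 of 20 in the C7 state (4, 20.0%, against 7.03%) and 0 of 22 in the Pi16 state (6, 27.3%, against 8.62%) by edgeR. The shares of all genes called there were 0.0436%, 0.0265% and 0.109%. DESeq2 called 0, 0 and 1, the last being Adamts16. The shares of all genes above are those of edgeR, and those of DESeq2 are not given for these states.

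**Figure D4:**
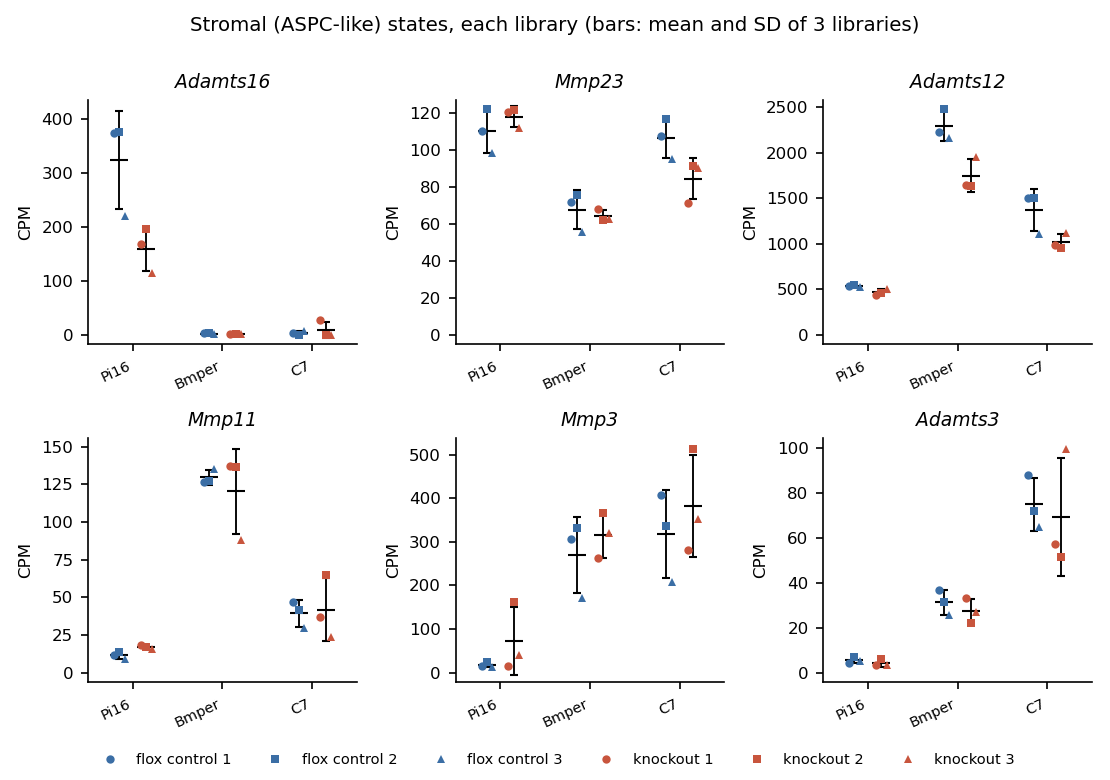
Level in CPM (vertical axis) of Adamts16, Mmp23, Adamts12, Mmp11, Mmp3 and Adamts3 in the 3 ASPC-like states, with 1 point per library and the mean and SD of 3 libraries as bars. Adamts16 lies at 115 to 377 CPM in the Pi16 state and near 0 in the others, and Mmp11 is led by the Bmper state.

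In endothelial-like nuclei, 10.8, 9.67 and 8.43% of kept nuclei in the flox controls and 2.79, 6.67 and 4.12% in the knockouts, none of the 19 genes tested passed, where 0.124% of all genes did. At an unadjusted p under 0.05 there were 9, or 47.4%, against 8.48% of all genes, and DESeq2 called none. Groups did not overlap for 10 of 19, 52.6%, against 14.2%. Of the 10, 4 were higher and 6 lower in the knockouts, where 8.03% and 6.12% of all genes were. Timp4 stood at 102, 152 and 121 CPM in the flox controls and at 155, 165 and 172 CPM in the knockouts (log2 fold change 0.38, edgeR adjusted p = 0.488). Timp3 stood at 701, 843 and 836 CPM and at 912, 938 and 1071 CPM (log2 fold change 0.27, edgeR adjusted p = 0.562). Timp3 and Timp4 had every knockout above every control, while Timp2, the other inhibitor tested, overlapped (log2 fold change 0.35, edgeR adjusted p = 0.711).

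Of the 6 genes lower in every knockout than in any control, only Adamts17 was led by endothelial-like nuclei. Adamts12, Adamts2 and Mmp11 were led by the Bmper state, and Mmp19 and Mmp12 by lipid-associated macrophage-like nuclei. Of the 4 higher genes, Timp3 and Timp4 were led by mural-like nuclei, Adamts10 by the C7 state and Adamts6 by the NK/T cluster. The log2 fold change of Adamts10 was 0.36 and that of Adamts6 0.20 (edgeR adjusted p = 0.491 and 0.761). Among the lower genes the log2 fold change was -0.65 for Adamts2, -0.68 for Mmp11 and -1.83 for Mmp12 (edgeR adjusted p = 0.37, 0.521 and 0.656). Adamts12 stood at 54.7, 34.6 and 42.8 CPM in the flox controls and at 23.1, 26.3 and 15.0 CPM in the knockouts (log2 fold change -1.04, edgeR adjusted p = 0.151). Mmp19 stood at 11.2, 6.80 and 8.29 CPM and at 1.45, 2.54 and 1.25 CPM (log2 fold change -2.23, edgeR adjusted p = 0.153). Macrophage markers summed in these nuclei to 221, 105 and 84.2 CPM in the flox controls and to 66.5, 77.9 and 57.5 CPM in the knockouts, and ASPC markers to 961, 593 and 374 CPM and to 504, 547 and 436 CPM, and their part was not tested. Adamts17 stood at 23.7, 25.5 and 38.2 CPM and at 13.01, 14.4 and 13.7 CPM, without overlap (log2 fold change -1.11, edgeR adjusted p = 0.182).

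Mural-like nuclei were 2.27, 2.18 and 1.44% of kept nuclei in the flox controls and 0.596, 0.913 and 0.791% in the knockouts. None of the 13 genes tested passed by edgeR or DESeq2, as for all genes (0.00%), and 4 had an unadjusted p under 0.05, 30.8%, against 4.98%. Timp3 stood at 1685, 1409 and 1561 CPM in the flox controls and at 2466, 3135 and 1789 CPM in the knockouts (log2 fold change 0.66, edgeR adjusted p = 0.649). Timp4 stood at 127, 164 and 139 CPM and at 228, 178 and 237 CPM (log2 fold change 0.58, edgeR adjusted p = 0.819). For Timp3 and Timp4 the knockouts lay above the controls without overlap here too. Timp2, the other inhibitor tested, overlapped (log2 fold change -0.24, edgeR adjusted p = 0.991). Adamts9 was also apart and higher (0.76, edgeR adjusted p = 0.816), and Adamts5 and Adamts10 were apart and lower (-1.25 and -0.50, edgeR adjusted p = 0.718 and 0.946). The share of all genes without overlap is not given for this class.

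**Figure D5:**
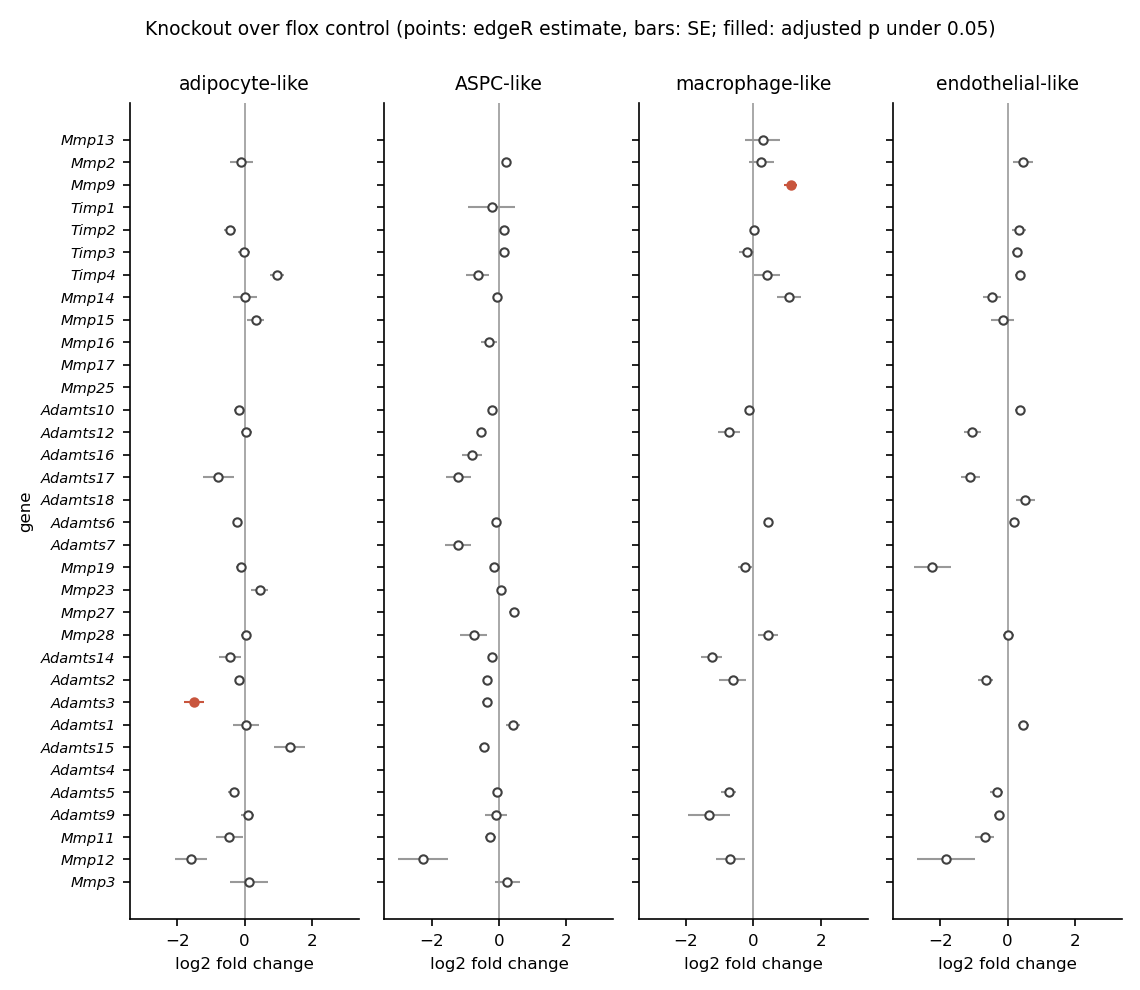
Log2 fold change of knockout over flox control (horizontal axis, edgeR estimate with SE bars) for genes in rows in adipocyte-like, ASPC-like, macrophage-like and endothelial-like nuclei, where a gene that was not tested has no point. Filled points passed an adjusted p of 0.05, which are Adamts3 in adipocyte-like nuclei (-1.50) and Mmp9 in macrophage-like nuclei (1.12).

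The responses of 2 classes were compared by a test of their difference. Over ASPC-like and adipocyte-like nuclei, 2 of 32 genes passed, both with a lower response in ASPC-like nuclei, against 0.658% of all genes. The difference was -1.85 for Adamts15 (SE 0.321, edgeR adjusted p = 0.0216), whose log2 fold change was -0.46 in ASPC-like and 1.34 in adipocyte-like nuclei. It was -1.63 for Timp4 (SE 0.313, edgeR adjusted p = 0.0298), whose log2 fold change was -0.64 and 0.97, from 1.70 to 3.99 CPM in ASPC-like nuclei. The Adamts15 call was lost without flox control 1, flox control 2, knockout 2 or knockout 3 and the Timp4 call without flox control 1, flox control 3 or knockout 3, and both at the finer clustering, with adjusted p up to 0.397 and 0.137. DESeq2 called Timp4 and Adamts12 and gave no adjusted p for Adamts15, and its share of all genes called is not given for this test. Between macrophage-like and ASPC-like nuclei none of 30 passed by edgeR or DESeq2, where 0.671% of all genes did by edgeR, and 9 had an unadjusted p under 0.05, 30.0%, against 12.1%.

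In whole tissue none of the 38 genes tested passed edgeR's adjusted p, against 0.0415% of all genes. At an unadjusted p under 0.05 there were 12, 31.6%, against 28.5% of all genes, and DESeq2 called 5, 13.2%, against 17.6%. The 5 were Adamts20 higher and Adamts4, Adamts5, Adamts9 and Mmp19 lower. Groups did not overlap for 8 genes, 21.1%, against 36.6%, so the whole-tissue count lay below that of all genes. Mmp12 stood at 119, 70.5 and 65.8 CPM in the flox controls and at 27.8, 61.2 and 17.8 CPM in the knockouts, apart, with a log2 fold change of -1.35 (edgeR adjusted p = 0.129) that passed without knockout 2 (-1.996, adjusted p = 0.0198). Mmp19 stood at 27.4, 18.0 and 19.0 CPM and at 13.9, 16.5 and 15.8 CPM (log2 fold change -0.57, edgeR adjusted p = 0.0939). Both are led by the lipid-associated state, whose share of macrophage-like nuclei is given above and whose part in these differences was not tested.

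Adamts4 in whole tissue stood at 1.39, 0.890 and 0.858 CPM in the flox controls and at 0.269, 0.452 and 0.507 CPM in the knockouts, without overlap (log2 fold change -1.44, edgeR adjusted p = 0.0667, DESeq2 adjusted p = 0.0221). It was led by mural-like nuclei, whose share of nuclei was lower in every knockout than in any control. The part of this share in the Adamts4 difference was not tested, and Adamts4 was not among the genes tested in mural-like nuclei. Adamts20, a versican-cleaving protease, stood at 0.666, 0.662 and 1.01 CPM and at 3.29, 1.48 and 1.66 CPM, also apart (log2 fold change 1.38, edgeR adjusted p = 0.0801). Nuclei like lymphoid stroma, marked by Cxcl13 and Ccl19, numbered 0, 0 and 8 in the flox controls and 143, 18 and 73 in the knockouts, and held 137 CPM of Adamts20 in flox control 3 and 146, 76.4 and 78.4 CPM in the knockouts. Summed over the adipocyte-, ASPC-, macrophage-, endothelial- and mural-like nuclei alone, an alternative chosen after seeing the data, its log2 fold change was -0.10. Adamts17 was high in the same lymphoid stroma-like nuclei, at 851 CPM in flox control 3 and 697, 859.6 and 267 CPM in the knockouts.

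The wider pathway was read from 57 genes in 3 lists. Of 15 genes that activate, hold or clear these proteases, 12 were tested in adipocyte-like nuclei and 1 fell: Reck, a membrane-anchored inhibitor of metalloproteinases, at 20.0, 19.7 and 18.3 CPM in the flox controls and 14.5, 13.9 and 13.1 CPM in the knockouts (log2 fold change -0.56, edgeR adjusted p = 0.0295), where 1.51% of all genes fell. The Reck call was lost without flox control 1, flox control 2, knockout 2 or knockout 3 and at the finer clustering, with edgeR adjusted p up to 0.116. In macrophage-like nuclei, where 0.805% of all genes fell, 1 of 12 did, Cd44, a hyaluronan receptor that docks Mmp9, at 857, 706 and 717 CPM and at 466, 566 and 531 CPM (log2 fold change -0.54, edgeR adjusted p = 0.0433). The groups of both genes were apart. The Cd44 call was lost without any 1 of flox controls 1, 2 and 3 and knockouts 1 and 3, with the replicate block and with doublet-scored barcodes kept, with edgeR adjusted p up to 0.17. Within the lipid-associated, Retnla and Fcrls and resident states, whose shares of the class are given above, the log2 fold change of Cd44 was -0.23, -0.13 and -0.07, and none passed.

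Of the 16 ADAM and ADAMTS-like genes, 14 were tested in adipocyte-like nuclei and 1 rose (against 1.11% of all genes), the membrane protease Adam33, at 1.70, 1.06 and 1.48 CPM in the flox controls and 4.34, 3.79 and 3.50 CPM in the knockouts (log2 fold change 1.38, edgeR adjusted p = 0.035). At the finer clustering, with the cluster of mostly flox control 3 nuclei in the class, its log2 fold change was 0.17 (edgeR adjusted p = 0.906). The call was also lost without any 1 of the 6 libraries (edgeR adjusted p from 0.0509 to 0.0974). None of 12 passed edgeR's adjusted p in macrophage-like and none of 14 in ASPC-like nuclei. At an unadjusted p under 0.05 there were 3, or 25%, in macrophage-like nuclei, against 15.1% of all genes, and 3, or 21.4%, in ASPC-like nuclei, against 10.8%.

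Of 26 substrates, 22 were tested in adipocyte-like nuclei and 2 fell, against 1.51% of all genes. Vegfc, whose propeptide Adamts3 cuts together with Ccbe1, stood at 22.8, 26.2 and 19.3 CPM in the flox controls and 14.1, 10.1 and 10.8 CPM in the knockouts (log2 fold change -1.05, edgeR adjusted p = 0.0262). Thbs1, thrombospondin-1, stood at 167, 207 and 116 CPM and at 94.7, 78.3 and 79.2 CPM (log2 fold change -1.03, edgeR adjusted p = 0.0454). The Vegfc call was lost without flox control 1, flox control 2, knockout 2 or knockout 3 and at the finer clustering (edgeR adjusted p up to 0.103). That of Thbs1 passed in 4 of 13 alternatives and was lost without any 1 library other than flox control 3 (edgeR adjusted p up to 0.143).

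In macrophage-like nuclei, where 0.438% of all genes rose, 1 of 19 substrates did, fibronectin (Fn1), at 349, 238 and 287 CPM in the flox controls and at 534, 536 and 652 CPM in the knockouts (log2 fold change 0.99, edgeR adjusted p = 0.0272). The call was lost without flox control 1, flox control 3, knockout 1 or knockout 3 and with the replicate block (edgeR adjusted p up to 0.095). Within the lipid-associated, Retnla and Fcrls and resident states the log2 fold change of Fn1 was 1.08, 0.23 and -0.09, and none passed.

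In endothelial-like nuclei, where 0.0955% of all genes rose, 1 of 19 substrates did, elastin (Eln), a target of Mmp12 and Mmp9, at 907, 822 and 802 CPM in the flox controls and at 1291, 1415 and 1385 CPM in the knockouts (log2 fold change 0.67, edgeR adjusted p = 0.0231). The call was lost without flox control 2, knockout 2 or knockout 3 and with nuclei of at least 1000 genes (edgeR adjusted p up to 0.204). The cluster led by Cytl1 and Mgp held 14.9, 16.9 and 12.9% of endothelial-like nuclei in the flox controls and 17.6, 22.3 and 23.8% in the knockouts, and its part in the Eln difference was not tested. None of the 12 activation, 14 ADAM and 21 substrate genes tested in ASPC-like nuclei passed.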

How the data were processed

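The deposited matrices hold UMI counts per gene and barcode, made with Cell Ranger 7.1 per the submitters' processing notes, which list mm10 and GRCh38 as builds. All 32285 genes are mouse genes. The sources used here give neither the strand and intron settings nor the barcode filter. The lowest barcode total was 500 UMIs. The 45 genes and the other lists were chosen with earlier results of these data known.

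Nuclei needed at least 500 genes and no more than 5% mitochondrial UMIs, and the barcodes with the highest Scrublet scores were removed at 0.8% per 1000 barcodes. In scanpy 1.11.5, 3000 variable genes without the 45, 40 principal components, 20 neighbours and Leiden clustering at resolution 1 (igraph 0.11.9, leidenalg 0.10.2) gave 34 clusters. A cluster was named when at least 3 markers and 50% of 1 of 25 lists stood 2-fold or more over the average of all remaining clusters (after adding 5 CPM), and 9 stayed unnamed.

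UMIs were summed per class and library and tested in R 4.3.3 with edgeR 4.0.16 (quasi-likelihood, TMM, filterByExpr), with DESeq2 1.42.0 as an alternative, and other alternatives are given with their effects in the closing section. The p-values measure the spread between 3 libraries per genotype. The labels do not say that replicate numbers pair libraries. No pair of libraries of 1 genotype was a copy, with a chi-square per degree of freedom of 32.7 to 84.3. Named with values were genes past the threshold, genes of at least 5 CPM in a class and 10 well-known ones, and of the pathway lists the genes past the threshold. On simulated data 200 genes changed 4-fold were recovered at 94% in ASPC-like (13639 genes), 91% in macrophage-like (12341 genes) and 94% in adipocyte-like sums (15511 genes), and 9.62%, 6.19% and 8.29% of calls were false. Changes of other sizes were not simulated, so these rates do not give the recovery of smaller changes, which most of those above are. Positions are from GENCODE vM21 on mm10.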

Additional observations from a re-analysis of the deposited data

Results flagged for a closer look

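A test of the difference between the responses of 2 classes to the knockout passed for 2 of the protease and inhibitor genes and 5 genes of the wider pathway (edgeR, Benjamini-Hochberg adjusted over all genes). Between ASPC-like and adipocyte-like nuclei 32 of the protease and inhibitor genes and 12, 15 and 23 genes of the 3 pathway lists were tested. Between macrophage-like and ASPC-like nuclei these numbers were 30 and 12, 14 and 22. Of all genes 0.658% passed below 0 in the first test, where the share above 0 is not given. In the second test 0.671% of all genes passed in either direction. The log2 response in ASPC-like nuclei minus that in adipocyte-like nuclei was -1.85 for Adamts15 and -1.63 for Timp4. By the same measure it was 0.70 for Reck, -1.29 for the proteoglycan biglycan (Bgn) and -1.04 for Adam33. At the finer clustering the differences of Bgn and Adam33 were -0.76 and -0.08. The log2 response in macrophage-like nuclei minus that in ASPC-like nuclei was 0.95 for Fn1 and 0.64 for the membrane protease Adam19. The Adam19 difference passed in 3 of 12 alternatives (edgeR adjusted p up to 0.228), that of Fn1 in 10 (up to 0.131, lost without flox control 1 or knockout 3), those of Reck and Bgn in 10 each (lost without knockout 3 and at the finer clustering) and that of Adam33 in 6.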

How the results depend on the processing

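Counts of called protease and inhibitor genes were small and moved with the tool. Apart from the DESeq2 shares given above, the shares of all genes called under these alternatives are not given. Where no share is given, the counts here and below do not show whether these genes moved more than all genes. With DESeq2 in place of edgeR, whole tissue had 1 higher and 4 lower in place of 0 and 0, adipocyte-like nuclei 1 higher and 2 lower in place of 0 and 1, ASPC-like nuclei 2 lower in place of 0 and the Pi16 state 1 lower in place of 0. With no filter on low counts, 1 was higher and 3 lower in ASPC-like nuclei, 3 higher and 1 lower in macrophage-like nuclei, 3 lower in endothelial-like nuclei, 2 higher and 4 lower in the Bmper state, 1 lower in the C7 state, 1 lower in the Pi16 state, and 1 higher and 1 lower in the resident state. With no filter the ASPC-minus-adipocyte responses had 2 above 0, and the macrophage-minus-ASPC responses 2 above and 3 below 0. At Leiden resolution 2, 0 were lower in adipocyte-like nuclei and 1 (Mmp12) was lower in the Retnla and Fcrls state. There 0 responses lay below 0 in ASPC minus adipocyte. The adipocyte-like class of that clustering included a cluster of 541 nuclei, 538 of them from flox control 3, whose part was not tested. With library totals alone 1 was higher in adipocyte-like nuclei, and with doublet-scored barcodes kept 1 response lay above 0 in ASPC minus adipocyte.

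Leaving out 1 library at a time gave 0 to 1 higher and 0 to 4 lower in whole tissue, 0 to 2 higher and 0 to 1 lower in adipocyte-like nuclei, 0 to 2 higher in macrophage-like nuclei, 0 to 1 higher in the resident state, 0 to 1 above and 0 to 2 below 0 in ASPC minus adipocyte, and 0 to 1 above and 0 to 1 below 0 in macrophage minus ASPC. Dropping libraries leaves 5 samples. These log2 fold changes turned sign: Mmp14 in macrophage-like nuclei (-0.34 without the Timd4 and Marco cluster) and Adamts20 in whole tissue (-0.10 in adipose classes alone), both alternatives chosen after seeing the data. Mmp12 did so when 1 library was left out, over a range of -0.0914 (without knockout 1) to 0.439 in the lipid-associated state and of -0.68 to 0.11 (without knockout 3) in the Retnla and Fcrls state. Beyond the shown values the causes were not tested.

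Same-numbered libraries correlated at -0.13 to 0.296 in their deviations from the group means, so the numbers were not taken as pairs. With the replicate block, 1 gene was lower in whole tissue and 1 in the Pi16 state, and 0 were higher in macrophage-like nuclei, where Mmp9 had an adjusted p of 0.0907 by edgeR. The leading class or state was the same for 34 of 34 genes with nuclei of at least 1000 genes, for 33 of 34 as a mean over nuclei, where Mmp13 moved to dendritic-like nuclei, and for 31 of 31 at Leiden resolution 2, where the 3 genes led by the NK/T cluster could not be compared because no cluster was named for NK cells.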
